A study of Homo sapiens with 10 samples.

Results

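The interferon regulatory factors (IRFs) measured here were IRF1, IRF2, IRF3, IRF4, IRF5, IRF7, IRF8 and IRF9, the 8 protein-coding genes with these symbols among the 60603 genes listed in both expression tables of the series. RNA was measured by mRNA-seq in NB4, an established cell line of acute promyelocytic leukemia, in which the PML-RARA fusion protein blocks the maturation of granulocyte precursors. In the knockdown experiment, 6 libraries were made from cells collected 48 h after lentiviral transduction with the pLKO.1 puro vector carrying no hairpin (EV) or with either of 2 short hairpins against GSE1, a protein bound to the histone demethylase LSD1 (shA1 and shB2, 2 libraries a group). In the inhibitor experiment, 4 libraries were made from cells kept for 24 h in 2 µM MC2580, an LSD1 inhibitor that the sample titles spell MC280, or in DMSO (2 libraries a group). Both experiments used this 1 cell line, so the libraries of a group are repeats within a line and not different patients or clones.

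IRFs are transcription factors that share a DNA-binding domain, which recognises GAAA repeats in the promoters of interferon genes and of genes switched on by interferon. IRF3 and IRF7 are activated by phosphorylation after viral nucleic acid is sensed and turn on type I interferon genes, and IRF5 acts below Toll-like receptors. IRF9 joins STAT2 in ISGF3, the complex that carries the type I interferon signal to DNA, and IRF1 and IRF2 act on shared sites, IRF1 mainly as an activator and IRF2 mainly as a repressor. IRF8 and IRF4 bind together with the ETS factors PU.1 and SPIB. IRF8 directs myeloid precursors towards monocytes and dendritic cells, and IRF4 is best known in activated lymphocytes and plasma cells.

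The values given are base means. Each was taken as the authors' average of normalised read counts over all libraries of an experiment, treated and control libraries together. The heading of the knockdown value names shB2 only, and whether the shA1 libraries enter that value was not checked here. A base mean says how strongly a gene was read in an experiment, and it holds no information on whether a hairpin or the inhibitor moved that gene. There is 1 mean a gene and experiment, so no spread between replicates, interval or test can be given for any value here, and neither the depth of a library nor the precision it gives is known. As the RNA came from whole cultures, fewer cells of a type and less RNA per cell cannot be told apart.

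Every IRF member was read in both experiments, and 7 of the 8 sat in the middle or upper range of expressed protein-coding genes. IRF3 had the highest level per length and IRF4 the lowest, in both experiments and with each definition of gene length. Summed, the members took 0.0337% of all normalised reads in the knockdown experiment and 0.0293% in the inhibitor experiment. IRF3 alone made up 32.8% and 43.1% of the members' summed base mean, IRF8 21.6% and 14.4%, and IRF4 0.145% and 0.0318%.

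**Figure D1:**
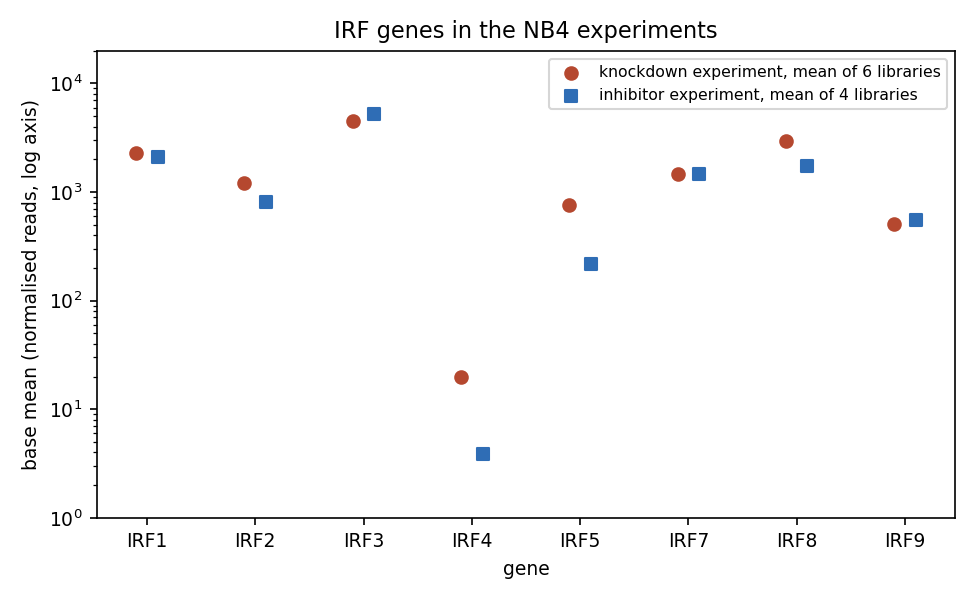
Base mean of each IRF gene (vertical log axis, normalised reads). Circles show the knockdown experiment (taken as the authors' mean of 6 libraries) and squares the inhibitor experiment (the authors' mean of 4 libraries). There are no error bars because each gene has 1 mean an experiment. IRF4 lies far below the other genes at 19.8 and 3.83, and the symbols of IRF4 and IRF5 are the farthest apart.

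Of the members activated by innate sensing, IRF3 (ENSG00000126456.16, chromosome 19, 49659569 to 49665875 on the minus strand of GRCh38, 8 exons in the canonical transcript) had a base mean of 4481 in the knockdown experiment and 5197 in the inhibitor experiment. These values put IRF3 at percentiles 88.2 and 90.3 of the protein-coding genes with a base mean above 0. IRF3 shares 734 bases of merged exon with BCL2L12 on the opposite strand, which had base means of 3182 and 3236. Whether the counting used strand is not given in the sources used here, so reads from that stretch cannot be assigned to either gene with certainty.

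IRF7 (ENSG00000185507.21, chromosome 11, 612553 to 615983, minus strand, 11 exons) had almost the same base mean in both experiments, 1465 and 1463, at percentiles 69.1 and 69.9. IRF7, which interferon itself induces in many cells, was thus a gene of moderate level in these cultures. Per kb of merged exon, IRF3 stood 2.11 times above IRF7 in the knockdown experiment and 2.45 times above it in the inhibitor experiment, and per kb of coding sequence 3.60 and 4.19 times.

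IRF5 (ENSG00000128604.20, chromosome 7, 128937457 to 128950038, plus strand, 9 exons) had a base mean of 754 in the knockdown experiment and 219 in the inhibitor experiment. Its percentile was 57.9 in the first and 44.3 in the second, so the gene lay above the median protein-coding gene in one and below it in the other.

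IRF9 (ENSG00000213928.8, chromosome 14, 24161234 to 24168043, plus strand, 9 exons), the DNA-binding subunit of ISGF3, had base means of 503 and 555, at percentiles 52.2 and 54.1. The level of IRF9 rests on how reads were divided with a second gene model, listed as AL136295.5 (ENSG00000259529), which lies on the same strand and covers 1513 of the 1626 bases of the canonical IRF9 transcript. That model had base means of 7.11 and 10.1, and the IRF9 values are uncertain to the extent that reads were split between the models. A gene on the opposite strand, ENSG00000289757, overlaps 308 bases of the canonical transcript and has no value here.

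IRF1 (ENSG00000125347.14, chromosome 5, 132440440 to 132508719, minus strand, 10 exons), an early target of the interferon-gamma signal, had base means of 2295 and 2087, at percentiles 77.3 and 76.5. The annotated span holds 12265 bases of merged exon against 3554 in the canonical transcript, and 2805 of the former are shared with the antisense RNA IRF1-AS1, which the tables name C5orf56. The antisense gene had base means of 75.4 and 102, and another opposite-strand gene that overlaps IRF1, AC116366.3, had 52.9 and 218, all far below IRF1 itself.

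IRF2 (ENSG00000168310.11, chromosome 4, 184385702 to 184474558, minus strand, 9 exons) had base means of 1214 and 813, at percentiles 65.7 and 59.7. IRF1 stood above its repressor counterpart with each length, and the size of the ratio depended on the length used. The ratio of IRF1 to IRF2 was 1.04 in the knockdown experiment and 1.41 in the inhibitor experiment per kb of merged exon, 1.20 and 1.63 per kb of the canonical transcript, and 2.03 and 2.76 per kb of coding sequence.

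IRF8 (ENSG00000140968.11, chromosome 16, 85899116 to 85922606, plus strand, 9 exons) had a base mean of 2949 in the knockdown experiment and 1733 in the inhibitor experiment, at percentiles 81.9 and 73.1. IRF8 was also a readout of RT-qPCR in the study, whose values were not used here. The primers lie in exons 7 and 8 of the canonical transcript, both in coding sequence. They are shown because they mark the stretch of the transcript read by that assay, and each of them matched the transcript once.
IRF8 forward: gaggtggtccaggtcttcg
IRF8 reverse: cggccctggctgttatag
The forward primer covers bases 1012 to 1030 of the 2668-base transcript (chromosome 16, 85918764 to 85918782) and the reverse primer bases 1065 to 1082 (85920122 to 85920139), which gives a product of 71 bases across the junction of the 2 exons.

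IRF4 (ENSG00000137265.15, chromosome 6, 391739 to 411443, plus strand, 9 exons) was barely read, with a base mean of 19.8 in the knockdown experiment and 3.83 in the inhibitor experiment, at percentiles 30.8 and 21.0. Per kb of merged exon, IRF8 stood 113 times above IRF4 in the first and 344 times above it in the second. The ratio was 296 and 901 per kb of the canonical transcript and 157 and 479 per kb of coding sequence. These ratios divide by the very low values of IRF4, 3.83 in the inhibitor experiment, so their size and their change between the experiments are uncertain. IRF8 stood 3.54 and 7.15 times above IRF5 per kb of merged exon, 4.25 and 8.59 times per kb of the canonical transcript and 4.72 and 9.54 times per kb of coding sequence.

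Divided by merged exon length, the members of the knockdown experiment fell in the order IRF3 (1181 per kb), IRF7 (561), IRF8 (376), IRF1 (187), IRF2 (181), IRF5 (106), IRF9 (77.8) and IRF4 (3.33). In the inhibitor experiment only IRF5 and IRF9 changed places, with 30.9 per kb for IRF5 and 85.8 for IRF9. The middle of the order moved with the definition of length. Per kb of coding sequence, IRF1 (2354) and IRF8 (2307) came next after IRF3 (3498) in the knockdown experiment, and per kb of the canonical transcript IRF8 (1105) came second and IRF9 (310) stood above IRF5 (260). No pair of neighbours can be said to differ beyond its spread, since no spread is known.

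**Figure D2:**
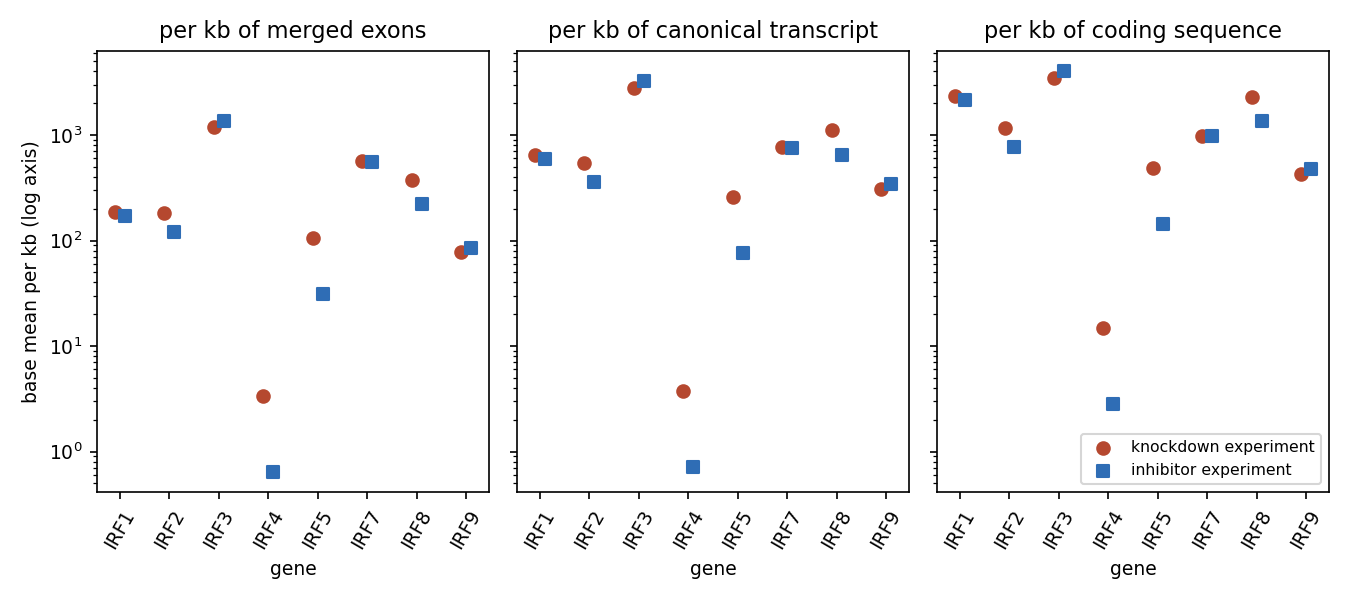
Base mean per kb of each IRF gene (vertical log axis) with 3 definitions of gene length, in the knockdown experiment (circles) and the inhibitor experiment (squares). IRF3 is highest and IRF4 lowest in every panel. In the knockdown experiment the order of the other 6 genes differs between panels. In the inhibitor experiment the order is the same with merged exons and the canonical transcript and differs with coding sequence.

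The levels of the members were then set side by side between the experiments, as the log2 ratio of the knockdown-experiment mean to the inhibitor-experiment mean, centred on the median of the 16007 genes with an average base mean of at least 10 and a value above 0 in both. The experiments were normalised separately and differ in transduction, time in culture, hairpins and compound, so these differences cannot be told apart and the ratio is no treatment effect. IRF4 and IRF5 were higher in the knockdown experiment by more than 2-fold, with log2 differences of 2.36 (5.15-fold) and 1.77 (3.42-fold). IRF4 passed the filter only through the knockdown experiment (base mean 19.8), as its 3.83 in the inhibitor experiment lies below 10. The filter thus favoured a call of higher for IRF4. No member was lower by that much. Of all genes tested, 4.65% were higher past 2-fold and 3.64% were lower, against 2 and 0 of the 8 members. Among the 12641 protein-coding genes tested, centred on their own median, 4.6% were higher and 2.25% lower.

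IRF8 (log2 difference 0.76, 1.69-fold) and IRF2 (0.57, 1.49-fold) were also higher in the knockdown experiment but stayed within 2-fold, at percentiles 91.6 and 86.2 of the log2 difference over all genes. IRF1 (0.13), IRF7 (-0.01), IRF9 (-0.15) and IRF3 (-0.22) lay between the 25th and 75th percentiles of all genes, which were -0.33 and 0.34. The median over the 8 members was 0.35, with 5 members above 0 and 3 below, of which IRF7 turns positive when the ratio is not centred or is scaled by the summed base means. The IRF4 ratio rests on a base mean of 3.83 in the inhibitor experiment, a handful of reads a library after normalisation.

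**Figure D3:**
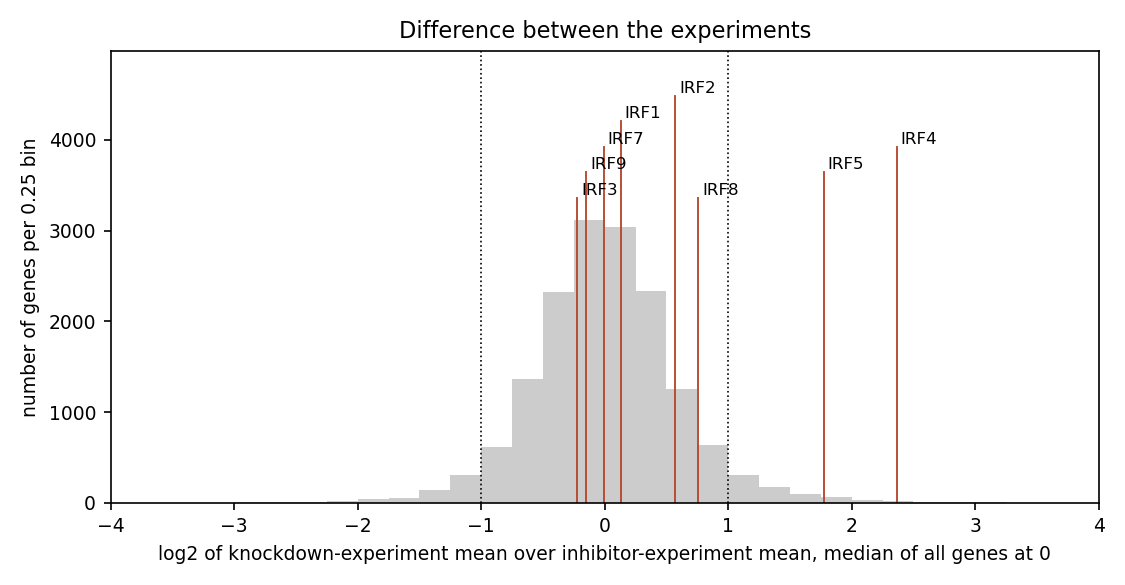
Number of genes (vertical axis) by log2 ratio of the knockdown-experiment mean to the inhibitor-experiment mean, centred on the median of all genes tested (grey bars), with each IRF gene as a labelled line and 2-fold differences as dotted lines. IRF4 (2.36) and IRF5 (1.77) lie beyond the right dotted line and the other 6 genes lie between the dotted lines.

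The promoter windows of the members were read for 3 short patterns because the members act on, and several are themselves targets of, interferon signalling. The windows are those of RefSeq on GRCh38.p14 and run from 250 bases before to 50 after a transcript start. They cover 5 of the 8 members in 9 windows, namely IRF1, IRF4, IRF5, IRF8 and IRF9, and IRF2, IRF3 and IRF7 have no entry. On either strand, the IRF core AANNGAAA was found for IRF5, IRF8 and IRF9, in 4 of the 9 windows and in 22.8% of the 35116 promoter windows in the table. The IRF8 windows overlap and the same match is counted in each, so the member windows are not independent. The STAT pattern TTCNNNGAA (a GAS element) was found for IRF1 and IRF9 and in 7.66% of all windows. The longer pattern GAAANNGAA, part of the interferon-stimulated response element and able to overlap the IRF core, was found for IRF5 alone, in a stretch that reaches into the transcript, and in 8.11% of all windows.

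The matches that lie before the RefSeq start are printed 5′ to 3′ on the strand of the gene, with the pattern in capitals. In IRF5 and in the second IRF8 match the pattern reads on the opposite strand.
IRF1 GAS: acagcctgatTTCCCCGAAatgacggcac
IRF9 GAS: accacgtgatTTCTGGGAAaaggccctcc
IRF9 IRF core: cctggaggagAACTGAAActtagggtgg
IRF8 IRF core, first match: tatctgcctgAAAGGAAAgggcagatga
IRF8 IRF core, second match: cccacggagcTTTCAGTTtgcactcagg
IRF5 IRF core: gtctagccacTTTCGTTTcccctggggc
The IRF1 pattern begins 124 bases before the start (chromosome 5, 132490879 to 132490907, minus strand). The IRF9 patterns begin 63 bases (chromosome 14, 24161192 to 24161220) and 35 bases (24161220 to 24161247) before it, so both lie in the same IRF9 window without adjoining. Coordinates are those of the printed stretches, which include bases on each side of a pattern. Those of IRF8 begin 116 bases (chromosome 16, 85902704 to 85902731) and 21 bases (85902799 to 85902826) before the first of its 2 starts, and that of IRF5 begins 33 bases before 1 of its 4 starts (chromosome 7, 128940627 to 128940654). These are matches of letters, and binding was not analysed here.

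The genes that feed signals into the IRFs were read in the same cultures. All 9 kinases and adaptors between the sensors and the IRFs passed the filter, with a median log2 difference of 0.20. None differed by 2-fold between the experiments, beside 4.65% of all genes tested that were higher and 3.64% that were lower. With 9 genes, none is close to these shares. Their base means ran from TICAM1 (109 and 93.7), the adaptor of TLR3, to IRAK1 (17049 and 20852), a kinase below MYD88, as reads per gene and not per length. TBK1, which phosphorylates IRF3, had base means of 2120 and 1261, and IKBKE, its close relative, 3797 and 3286.

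Of 9 nucleic acid and Toll-like sensors, 7 passed the filter and 3 were higher in the knockdown experiment by more than 2-fold. Of all genes tested, 4.65% were higher by that much. The median log2 difference over the 7 sensors was 0.59. The 3, named because they passed the threshold, were DDX58 (RIG-I, base means 3302 and 1310, log2 difference 1.33), TLR4 (1083 and 505, 1.09) and TLR9 (96.3 and 26.7, 1.84). TMEM173, which encodes STING, had 5007 and 5170. TLR7 and TLR8, endosomal RNA sensors, did not pass the filter, with base means of 0.221 and 0.752 in the knockdown experiment and listed at 0 in the inhibitor experiment.

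The 8 interferon receptor and JAK-STAT genes reported here all passed the filter, with a median log2 difference of 0.52. JAK1 alone exceeded 2-fold (4304 and 2070, log2 difference 1.05), beside 4.65% of all genes tested that were higher by that much. Base means ran from IFNAR2 (816 and 473), a chain of the type I interferon receptor, to TYK2 (20217 and 20595), a kinase bound to that receptor. STAT2, a partner of IRF9 in ISGF3, had base means of 3765 and 2401.

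Among 9 DNA-binding partners and cofactors of IRFs, none differed by 2-fold, beside 4.65% of all genes tested that were higher and 3.64% that were lower. The median log2 difference of the 9 was -0.10. SPI1, which encodes PU.1, the partner of IRF8 and IRF4, had base means of 7723 and 9239, while SPIB, its lymphoid relative, had 27.4 and 46.1. IKZF1, which encodes the zinc finger factor Ikaros, had 7915 and 5958. IRF2BP1, a corepressor that binds IRF2, had 5505 and 8589 with a log2 difference of -0.65. Its relatives IRF2BP2 and IRF2BPL had log2 differences of -0.13 and 0.51, so these 3 genes did not lean one way, beside 0.57 for IRF2.

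The 12 targets of ISGF3 or IRF1 reported here all passed the filter, with a median log2 difference of 0.72. In the knockdown experiment 4 were higher past 2-fold and 1 was lower, beside 4.65% and 3.64% of all genes tested. All 5 are named for having passed that threshold. IFIT2 (3553 and 444, log2 difference 2.99), IFIT3 (4093 and 1104, 1.88), IFIT1 (2832 and 1277, 1.14) and IFI44L (477 and 233, 1.02) were the higher genes, and GBP1, a guanylate-binding protein induced by interferon-gamma, was the lower one (11.3 and 52.6, -2.22). IFI6 had base means of 6038 and 11132 with a log2 difference of -0.89. The listed targets thus did not all lean the same way, though IFI6 and GBP1 alone of the 12 had negative log2 differences.

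Most promyelocyte markers were well read but not all of them, and no feature particular to NB4 was examined. Of the 6 markers, MPO (myeloperoxidase) had base means of 506765 and 824818, and PRTN3, CTSG and CD33 had between 2511 and 6435, while ELANE, which encodes neutrophil elastase, was near 0 at 1.10 and 3.87. AZU1, which encodes azurocidin, was lower in the knockdown experiment past 2-fold (723 and 1814, log2 difference -1.34), and the 5 markers that passed the filter had a median log2 difference of -0.71. The summed level of the 6, most of it MPO, was 516873 in the knockdown experiment and 840157 in the inhibitor experiment. Of the 3 B cell markers MS4A1 was at 0.217 and 0 and CD79A at 121 and 116, of the 3 T cell markers CD3E was at 1.55 and 2.98 and CD3D at 866 and 869, and of the 2 plasma cell markers SDC1 was at 293 and 154 and MZB1 at 44.5 and 78.8. The 3 erythroid markers had a summed base mean of 12.7 and 0. The 3 fibroblast markers had 67.0 and 31.3, of which PDGFRB was past 2-fold (52.6 and 18.3, log2 difference 1.51). The 3 epithelial markers had 1338 and 1072, with KRT18 at 906 and 668, EPCAM at 432 and 403, and CDH1 at 0 and 0.859. The part of these levels in the differences of the IRF members was not tested. GSE1, the gene that the hairpins target, had base means of 2963 and 4441, and KDM1A, which encodes LSD1, 7648 and 6285. As means over all groups these do not check the labels.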

How the data were processed

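NB4 mRNA-seq libraries (10 in 5 groups) were grouped by their sample labels. The authors made TruSeq libraries, aligned them with STAR 2.7 to hg38, and used RSEM for gene quantification and DESeq2 for normalisation; the annotation, the strand setting and the versions of RSEM and DESeq2 are not given in the sources used here. The deposited values are a signal that the authors call the base mean, taken as an average of normalised counts over all libraries of an experiment. Depth per library is therefore unknown. The heading of the knockdown value names hairpin shB2 only, and whether the shA1 libraries enter the value was not checked. Low values were not whole multiples of a common step, so whole reads were not recovered. The tables also hold 10 columns (knockdown) and 5 columns (inhibitor) of the authors' comparisons, namely log2 fold changes, their standard errors, test statistics, p-values and adjusted p-values, which were not used. The edgeR test planned for counts was not run, because the tables used hold no values per library.

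From the base means, shares of the summed base means, percentiles, levels per kb and log2 ratios were computed without a pseudocount, for genes with an average base mean of at least 10 and a value above 0 in both tables. A call is a 2-fold ratio, without a test. Lengths and coordinates are from GENCODE 44 on GRCh38, where 60306 of 60603 gene identifiers matched, and canonical coding length stands in for the protein length planned. Python 3.11.15, pandas 2.3.3, numpy 2.4.6 and matplotlib 3.10.9 were used. The log2 ratio was also run on simulated means with planted differences. That run checks the code only and does not model how the experiments differ. The members, lists and markers were chosen with earlier results of these data known. Besides the members, the highest and lowest gene of each pathway list, those failing the filter, and genes that overlap a member are named, with markers of each cell type. The genes past 2-fold, and TBK1, IKBKE, STAT2, the IRF2BP genes, ISG15 and MX1, were added after their values were seen. Some listed genes are not reported here, and they enter no count of a list. The canonical transcript length was an alternative chosen after seeing the data.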

Additional observations from a re-analysis of the deposited data

How the results depend on the processing

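No paired analysis was possible because the tables used here hold 1 mean a gene and experiment; for the same reason leaving out replicates, DESeq2, edgeR and its filter were not run. The number of members higher past 2-fold fell to 1 when the filter was raised to 50, as IRF4 no longer entered. Over all 16007 genes tested, 745 (4.65%) were higher and 583 (3.64%) lower. At 1.5-fold, 2144 of the same 16007 genes were higher and 2024 lower, and IRF8 (0.76) also passed, which made 3 members higher. With the filter at 50, 425 genes were higher and 254 lower, and with the filter at 1, 2007 and 2178. These 2 filters change the number of genes tested, so their counts are not shares and the member counts there have no share beside them. With protein-coding genes only, 581 (4.6%) of 12641 were higher and 284 (2.25%) lower. In the order per kb, 2 members changed place with the inhibitor libraries, 3 with coding length and 4 with canonical transcript length. The GAAANNGAA match of IRF5 was lost (0 members) with only the bases before the start. The log2 difference of IRF7 lay between -0.07 and 0.03 over its alternatives and was positive without centring, when scaled by the summed base means and with the filter at 1, and no other member changed sign. Depth limits IRF4 most, as the member with the lowest base mean.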

Other observations

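The interferon genes themselves were hardly read. IFNB1 had base means of 3.68 in the knockdown experiment and 2.59 in the inhibitor experiment, IFNA1 reached 3.75 in the inhibitor experiment and less in the knockdown experiment, IFNG was listed at 0 and had 0.295, and IFNL1 was listed at 0 in both. None of these 4 genes passed the filter, so no difference between the experiments is given for them. In the same libraries ISG15, a ubiquitin-like protein encoded by a classical interferon-stimulated gene, had base means of 3810 and 3616, and MX1, an antiviral GTPase, 525 and 274.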
